A study of Homo sapiens with 2 samples.

Results

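The zinc finger genes of human chromosome 19 were described in RNA-seq libraries of HEK293 cells. Members were all protein-coding genes that GENCODE v44 (GRCh38) places on chromosome 19 and whose symbol is ZNF followed by digits and letters without a hyphen. This gave 246 genes out of 59026 genes that the listed transcripts could be matched to, or out of 19885 protein-coding genes. Another 264 ZNF genes lie on other chromosomes, and 1222 other protein-coding genes lie on chromosome 19. HEK293 is an established human embryonic kidney line, and the cells used were its Flp-In T-Rex derivative, which carries a site for tetracycline-controlled transgenes. The single group held 2 libraries of rRNA-depleted total RNA from untreated cells grown in DMEM with 10% foetal calf serum, called replicate 1 and replicate 2. No source used here says that they came from separate cultures, so every spread below is that between the libraries and may be technical. With 1 group there is no contrast between conditions and no p-value is given.

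Most of these genes encode C2H2 zinc finger proteins, in which each finger folds around a zinc ion held by a pair of cysteines and a pair of histidines and contacts a few bases of DNA. The genes arose by repeated tandem duplication, so neighbours along the chromosome resemble each other and the fingers within a protein resemble each other too. Many carry an N-terminal KRAB domain, which binds TRIM28 (also called KAP1). TRIM28 in turn brings in the H3K9 methyltransferase SETDB1, HP1 proteins and deacetylases, and this machinery is best known for silencing transposable elements.

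The repeated structure is shown by the first 3 consecutive regular fingers of ZNF91, which represses SVA retrotransposons, of ZNF729 from the same block of genes, and of ZNF146, a short protein made almost wholly of fingers. Each run has 252 bases of coding sequence within 1 exon, that is 84 bases per finger with its linker, and the capitals mark the cysteine and histidine codons. The ZNF91 run lies on the minus strand at chr19:23361926-23362177, that of ZNF729 on the plus strand at chr19:22314213-22314464 and that of ZNF146 on the plus strand at chr19:36236492-36236743 (GRCh38).
ZNF91: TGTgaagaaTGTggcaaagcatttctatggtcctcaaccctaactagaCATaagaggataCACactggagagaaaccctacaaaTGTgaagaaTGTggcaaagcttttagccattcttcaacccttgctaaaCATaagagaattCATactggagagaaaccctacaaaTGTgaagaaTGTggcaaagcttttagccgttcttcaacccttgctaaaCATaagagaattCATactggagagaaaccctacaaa
ZNF729: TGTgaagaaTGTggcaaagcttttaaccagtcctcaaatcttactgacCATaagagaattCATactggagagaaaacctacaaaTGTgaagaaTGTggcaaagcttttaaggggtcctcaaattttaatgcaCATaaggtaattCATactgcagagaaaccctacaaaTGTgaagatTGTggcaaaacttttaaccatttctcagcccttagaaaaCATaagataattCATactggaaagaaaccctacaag
ZNF146: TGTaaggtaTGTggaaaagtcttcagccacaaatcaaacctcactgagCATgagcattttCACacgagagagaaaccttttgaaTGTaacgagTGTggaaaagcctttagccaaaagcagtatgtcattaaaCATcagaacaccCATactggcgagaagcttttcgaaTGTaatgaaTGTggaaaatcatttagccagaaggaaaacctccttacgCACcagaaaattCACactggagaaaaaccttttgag
ZNF91 and ZNF729 had the same base at 207 of the 252 positions (82.1%), whereas ZNF91 and ZNF146 shared 161 (63.9%). Between the fingers of 1 run, 70 to 83 of 84 bases were the same in ZNF91, 65 to 73 in ZNF729 and 55 to 61 in ZNF146.

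This likeness bears on the counts, since a read from a shared stretch has to be divided between genes. The 50-base stretch held by most members is printed from ZNF430, from its coding sequence on the plus strand at chr19:21057655-21057704, with the codons of the linker between fingers in capitals.
ZNF430: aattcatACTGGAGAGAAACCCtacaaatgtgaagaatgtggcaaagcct
It occurred in transcripts of 18 members, all 18 within the block of 37 genes from ZNF101 to ZNF254, and a second stretch was also held by 18 members. Over all members, the median share of 50-base words of the canonical transcript that also occurred in another gene was 3.11%. The share was 0 for 52 members and above 50% for 9, namely ZNF177, ZNF20, ZNF625, ZNF709, ZNF564, ZNF490, ZNF98, ZNF724 and ZNF223. The values of these 9 are uncertain because of such shared words. Counting only words shared with other members, the share was 55.2% for ZNF98, 4.69% for ZNF724 and at most 0.907% for the rest of the 9. Except in ZNF98, the shared words of the 9 thus lay mainly in genes that are not members. In addition, the span of 139 members overlaps a gene on the opposite strand and that of 107 a gene on the same strand, and whether the counting used strand was not given in the sources used here.

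In the translated canonical coding sequences, the finger pattern was matched 1 to 36 times, with a median of 12. The most matches were in ZNF208 (36), ZNF729 (34), ZNF91 (31), ZNF850 (29) and ZNF845 (26). A KRAB core, called where at least 8 of 10 conserved positions matched, was found in 208 members (84.6%). The other 38 matched at most 6 of these positions.

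The libraries held 25158962 estimated counts (replicate 1) and 27143860 (replicate 2). Markers of the line were mixed. VIM (vimentin) was at a level of 311 and 302 and the neurofilament gene NEFL at 19.4 and 25.2, whereas NEFM was at 0.234 and 0.327 and the kidney-lineage gene PAX2 at 0.679 and 0.709. Of the markers of other cell types, PTPRC, ALB and UMOD were listed at 0, but COL1A1 was at 4.21 and 5.50 and the erythroid gene HBB at 20.2 and 20.9. These values are length-normalised levels, that is estimated counts divided by transcript length and scaled to 1000000 per library, and this is the scale of every level given from here on.

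Most zinc finger genes of chromosome 19 were present, and few reached a high level. The median member had a level of 5.11 in replicate 1 and of 4.91 in replicate 2 (5.01 ± 0.139, SD, n = 2). All levels depend on the total they are scaled to, and with misc_RNA, ribozyme and snRNA left out of it this median was 10.5. In both libraries, 200 of the 246 members (81.3%) reached a level of 1. For ZNF genes on other chromosomes the values were close to these, with 214 of 264 (81.1%) at a level of 1 or more and a median of 5.22 ± 0.168. For the other protein-coding genes of chromosome 19 the share was 55.2% and the median 2.24 ± 0.491, and for all protein-coding genes it was 60.3% with a median of 3.86 ± 0.132. High levels were scarcer among ZNF genes: 49 members (19.9%) had a mean level of at least 10, against 61 of 264 ZNF genes on other chromosomes (23.1%) and 33.6% of all protein-coding genes. The quartiles of the members were 2.23 and 8.92, against 0.0845 and 15.2 for all protein-coding genes. Together the members took 0.544% of all estimated counts in replicate 1 and 0.503% in replicate 2. In such bulk RNA, fewer cells with a transcript and less RNA per cell cannot be told apart.

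**Figure D1:**
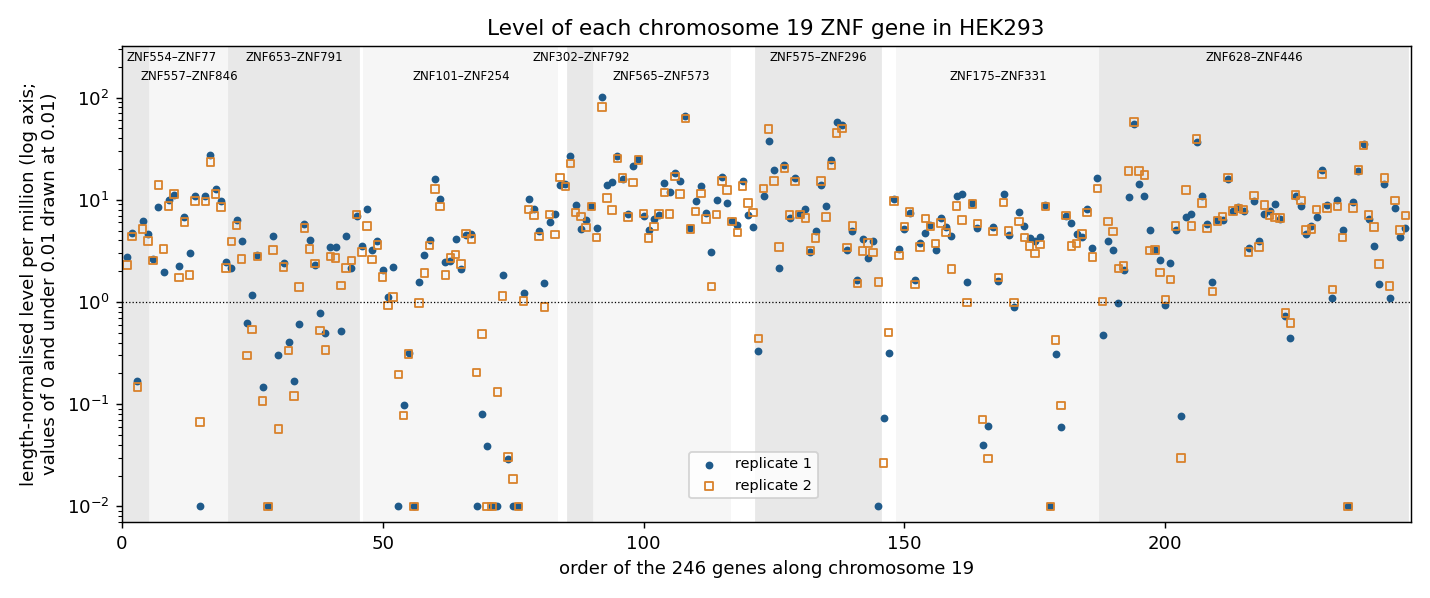
Length-normalised level (log axis, scaled to 1000000 per library) of the 246 genes in their order along chromosome 19, with replicate 1 as filled circles and replicate 2 as open squares; shading marks the 9 clusters with at least 5 genes and the dotted line a level of 1. Most genes lie between 1 and 20, the genes under 1 gather in the blocks ZNF653 to ZNF791 and ZNF101 to ZNF254, and all 26 genes from ZNF565 to ZNF573 lie above 1.

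The level varied by position. Opening a new cluster wherever neighbouring starts were over 1 Mb apart gave 16 clusters, of which 9 had at least 5 members and held 235 members in all. The remaining 11 members stood in 7 small groups. A pair of medians was called different beyond the spread where their order held in each library and the means differed by more than the sum of their SDs.

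The highest median was found for the 26 genes from ZNF565 to ZNF573 (36.2 to 37.8 Mb), at 12.9 and 9.17 per library, averaging 11.01 ± 2.61 (SD, n = 2). All 26 reached a level of 1 in both libraries. ZNF146 was the highest of them and ZNF540, at 3.09 and 1.42, the lowest. The 15 genes from ZNF557 to ZNF846 (7.07 to 9.79 Mb) had a median of 8.51 in replicate 1 and 8.50 in replicate 2, with ZNF121 at the top and ZNF699 (2.26 and 1.73) the lowest of those above 0. For the 5 genes from ZNF302 to ZNF792 (34.7 to 35.0 Mb) the medians were 8.65 and 7.52, and the genes ranged from ZNF30 (6.29 and 5.35) to ZNF302 (26.99 and 22.7). These 3 clusters did not differ from each other beyond the spread.

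The lowest median belonged to the 37 genes from ZNF101 to ZNF254 (19.7 to 24.1 Mb), at 2.09 and 1.76, a mean of 1.92 ± 0.234 (SD, n = 2). Here 22 of 37 reached a level of 1, with ZNF99 (0.0294 and 0.0305) the lowest of those above 0 in both libraries and ZNF714 (15.8 and 12.8) the highest. The 25 genes from ZNF653 to ZNF791 (11.5 to 12.6 Mb), at 2.14 and 2.21, were not set apart from this block beyond the spread. Among them 14 reached a level of 1, with ZNF439 (0.146 and 0.108) the lowest of those above 0 in both libraries and ZNF791 (6.98 and 7.20) the highest. Both blocks were lower than each of the other 7 clusters in both libraries, by more than the spread. They also had the highest median share of 50-base words that occurred in another gene. It was 6.62% from ZNF101 to ZNF254 and 6.57% from ZNF653 to ZNF791, against at most 2.92% in the other 7 clusters. Over all 246 members, level and this share had a Spearman's rho of -0.16. The part of shared sequence in these levels was not tested.

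The other 4 clusters lay between. The 24 genes from ZNF575 to ZNF296 (43.5 to 45.1 Mb) had medians of 7.00 and 6.73, with ZNF227 the highest and ZNF575 (0.332 and 0.437) the lowest of those above 0. The 59 genes from ZNF628 to ZNF446 (55.5 to 58.5 Mb), the largest cluster, had medians of 6.36 and 6.62, with ZNF581 (54.8 and 57.6) the highest and ZNF835 (0.0761 and 0.0296) the lowest of those above 0 in both libraries. The 39 genes from ZNF175 to ZNF331 (51.6 to 53.6 Mb) had medians of 4.58 and 4.28, with ZNF331 (16.3 and 12.9) the highest and ZNF578 (0.0615 and 0.0292) the lowest of those above 0 in both. The 5 genes from ZNF554 to ZNF77 (2.82 to 2.94 Mb), at 4.64 and 3.93, did not differ from the latter beyond the spread, and ZNF556 (0.167 and 0.147) and ZNF57 (6.25 and 5.17) were their extremes. Of the 36 pairs of clusters, 31 differed beyond the spread.

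**Figure D2:**
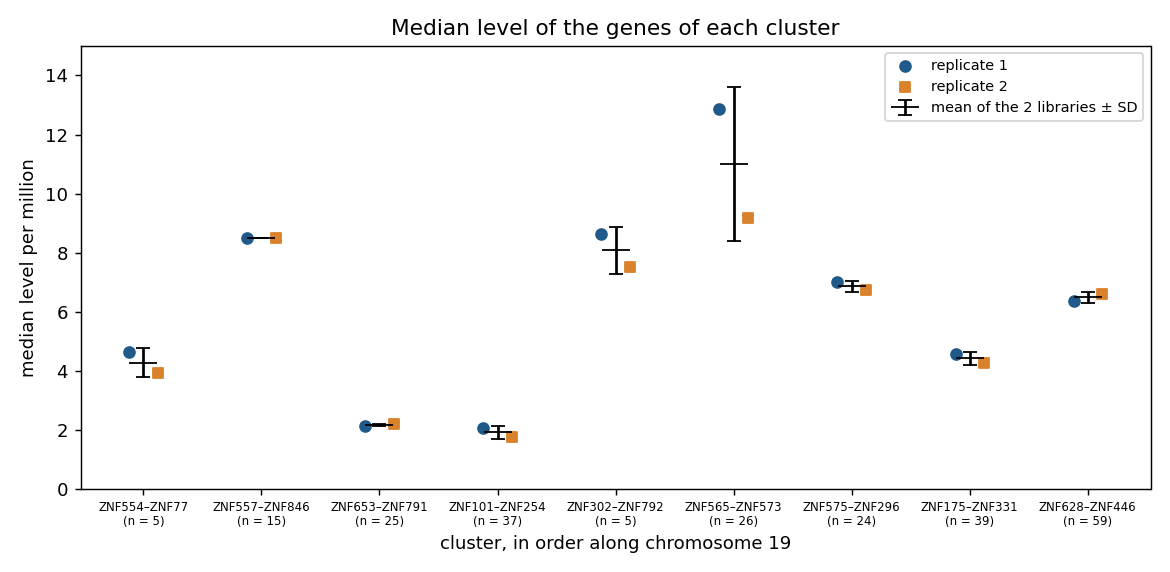
Median length-normalised level of the genes in each of the 9 clusters, in order along chromosome 19, for replicate 1 (circles), replicate 2 (squares) and their mean ± SD (black). The blocks ZNF653 to ZNF791 and ZNF101 to ZNF254 lie near 2 in both libraries, and ZNF565 to ZNF573 is highest in both, at 12.9 and 9.17.

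The levels of genes next to each other in a cluster had a Spearman's rho of 0.43 over 230 neighbouring pairs, which share libraries and partly sequence. This value includes the differences between clusters, and with the median of the cluster subtracted from each level, a step added after the data were seen, it was 0.16. One run within the low block, picked out after its values were seen, comprised the 9 genes from ZNF208 to ZNF728 (21.9 to 23.0 Mb). In 8 of these 9 genes the level was under 1 in at least 1 library, and 6 were at 0 in at least 1 library. Their median was 0.0299, and ZNF492, at 1.85 and 1.14, was the exception. ZNF98 (0 and 0.132), in the same run, shared 54.2% of its 50-base words with ZNF492, and ZNF492 shared 29.4% with ZNF98. How the counts divide between these genes is therefore uncertain. This run contains ZNF208 (0 and 0.203) and ZNF729 (0 in both), the members with the most fingers. Finger number itself had little relation to level over all 246 members, with a rho of -0.06. ZNF91, with 31 matches, was at 8.19 and 7.00 and lies beyond the run on the same block. ZNF850 (24.8 and 24.5) and ZNF845 (5.89 and 3.54) also have many fingers and were well above a level of 1.

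No estimated count in either library was assigned to 6 members: ZNF69, ZNF626, ZNF729, ZNF728, ZNF415 and ZNF135. The same held for 2769 of all 19885 protein-coding genes and for 14 of 264 ZNF genes on other chromosomes. A count of 0 allows up to 3 counts, that is 3.17 normalised counts in replicate 1 and 2.78 in replicate 2, and this covers counting error only. Normalised counts are the authors' estimated counts divided by a size factor per library, and they are used wherever the libraries are compared. At 0 in a single library were 1224 of 19885 protein-coding genes, 3 of 264 ZNF genes on other chromosomes and a further 7 members. These members were ZNF560, ZNF90, ZNF208, ZNF676, ZNF98, ZNF723 and ZNF296. Of all 13 members named, ZNF296 alone had more than 10 normalised counts in the other library. ZNF415 was at 0 although 26 transcripts are listed for it, whereas ZNF729 has a single listed transcript.

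The highest member was ZNF146 (chr19:36214602-36238771, plus strand), with 8729 normalised counts in replicate 1 and 5909 in replicate 2. Its level was 101 and 80.7, a mean of 90.9 ± 14.4 (SD, n = 2). It was 1.41-fold above the next gene, ZNF875 (65.7 and 62.8). The order of this pair held in both libraries and the difference exceeded the sum of the SDs. The next 3 were ZNF581 (54.8 and 57.6), ZNF227 (53.6 and 50.1) and ZNF226 (57.3 and 44.9), whose order was not the same in both libraries. ZNF428 (37.8 and 49.5), ZNF460 (37.1 and 39.3), ZNF544 (35.4 and 34.0), ZNF529 (26.7 and 25.4) and ZNF121 (27.3 and 23.5) completed the 10 highest. These 10 genes come from 4 clusters, and ZNF226 and ZNF227 are direct neighbours. ZNF428 has 1 finger match and ZNF581 has 4, and neither they nor ZNF146 and ZNF121 have the KRAB core.

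Members with known roles differed widely in level, although none of those listed was at 0. Among the repressors of retrotransposons, ZNF91 was at 8.19 and 7.00, whereas ZNF93, which acts on L1 elements, was at 1.12 and 0.920. Of their relatives in the same block, ZNF43 was at 4.58 and 4.11 and ZNF85 at 2.87 and 1.93. ZNF274, which recruits SETDB1 to the 3-prime ends of zinc finger genes, was higher, at 19.1 and 19.5 (19.3 ± 0.297, SD, n = 2). The imprinted gene ZNF331 was at 16.3 and 12.9. ZNF536, a regulator of neuronal differentiation that stands alone at 30.2 to 30.7 Mb, was at 13.8 and 16.5. ZNF382 was at 16.1 and 16.3, ZNF224 at 14.03 and 15.2, and ZNF420, a KRAB protein that restrains p53, at 14.7 and 11.8. ZNF473, which takes part in 3-prime end processing of histone mRNA, was at 10.2 and 9.72, ZNF649 at 7.38 and 7.56 and ZNF568 at 7.04 and 7.28.

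Members without the KRAB core had a median level of 6.23 in replicate 1 and 7.32 in replicate 2, against 5.06 and 4.72 for those with it. The mean medians, 6.78 ± 0.776 and 4.89 ± 0.239 (SD, n = 2), differed beyond the spread. A level of at least 10 was reached by 14 of 38 members without the core (36.8%) and by 35 of 208 with it (16.8%). The groups also differed in GC content, with a median of 59.0% for the canonical transcripts without the core and 41.9% with it. Below 45% GC the median level was 8.88 for 12 members without the core and 4.57 for 171 with it, and from 45 to 55% GC it was 9.46 for 4 and 5.86 for 32. Among transcripts of at least 55% GC the order was the other way, with 4.26 for 22 members without the core and 6.16 for 5 with it.

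Promoters of the low blocks held fewer CpG. RefSeq promoters (GRCh38.p14, 250 bases before to 50 bases after the start) were found for 216 members. For those with several promoters the median was used. The ratio of observed to expected CpG had a median of 0.448 for 29 genes from ZNF101 to ZNF254 and 0.609 for 24 genes from ZNF653 to ZNF791, and between 0.732 and 0.869 in the other 7 clusters. To show this, promoters are printed for ZNF146 and ZNF227, which were high, for ZNF69 and ZNF626, which were at 0 and belong to the low blocks, and for ZNF415, which was at 0 in a block of intermediate level. Capitals mark each CG.
ZNF146 (plus strand, chr19:36214856-36215155): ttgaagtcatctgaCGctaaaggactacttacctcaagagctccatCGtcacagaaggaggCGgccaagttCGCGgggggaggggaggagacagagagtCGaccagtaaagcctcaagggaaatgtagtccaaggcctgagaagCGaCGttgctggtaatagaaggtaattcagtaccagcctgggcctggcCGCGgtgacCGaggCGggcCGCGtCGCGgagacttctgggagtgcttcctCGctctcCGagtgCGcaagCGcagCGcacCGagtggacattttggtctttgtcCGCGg
ZNF227 (plus strand, chr19:44212282-44212581): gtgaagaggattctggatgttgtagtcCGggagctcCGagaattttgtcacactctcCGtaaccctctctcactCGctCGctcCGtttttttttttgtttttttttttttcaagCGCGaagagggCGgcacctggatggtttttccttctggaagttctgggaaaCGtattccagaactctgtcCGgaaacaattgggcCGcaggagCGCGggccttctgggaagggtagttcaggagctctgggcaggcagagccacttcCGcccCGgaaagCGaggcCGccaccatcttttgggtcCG
ZNF69 (plus strand, chr19:11887532-11887831): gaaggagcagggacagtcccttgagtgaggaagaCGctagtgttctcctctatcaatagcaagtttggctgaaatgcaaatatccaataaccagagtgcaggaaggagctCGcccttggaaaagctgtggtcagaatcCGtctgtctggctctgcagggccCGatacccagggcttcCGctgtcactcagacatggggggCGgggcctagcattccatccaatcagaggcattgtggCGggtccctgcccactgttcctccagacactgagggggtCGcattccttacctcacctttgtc
ZNF626 (minus strand, chr19:20661522-20661821): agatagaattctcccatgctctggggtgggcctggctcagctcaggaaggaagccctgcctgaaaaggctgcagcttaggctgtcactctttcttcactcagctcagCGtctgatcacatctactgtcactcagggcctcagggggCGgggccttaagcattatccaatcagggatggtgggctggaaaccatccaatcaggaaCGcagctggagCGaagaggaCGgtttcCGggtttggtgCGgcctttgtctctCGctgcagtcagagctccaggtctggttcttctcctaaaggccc
ZNF415 (minus strand, chr19:53132861-53133160): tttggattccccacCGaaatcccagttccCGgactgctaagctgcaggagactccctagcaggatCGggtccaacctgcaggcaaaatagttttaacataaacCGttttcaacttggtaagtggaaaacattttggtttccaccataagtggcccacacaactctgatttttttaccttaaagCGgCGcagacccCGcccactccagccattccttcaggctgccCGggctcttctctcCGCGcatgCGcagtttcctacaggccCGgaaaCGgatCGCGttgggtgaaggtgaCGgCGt
ZNF146 has 24 CG (ratio 0.941) and ZNF227 has 19 (0.872), whereas ZNF69 and ZNF626 have 8 each (0.344 and 0.333). ZNF415 has 17 (0.810), so a transcript count of 0 occurred with a CpG-rich promoter as well. Conversely, ZNF714, the highest gene from ZNF101 to ZNF254, has 10 CG (0.384) in a promoter not printed. In that block a ratio below 0.5 was found for 11 of 19 members at a level of 1 or more in both libraries. It was also found for 9 of 10 members under 1. A ratio below 0.5 was found in 46.0% of all 35116 RefSeq promoters. That share counts each promoter singly and is not limited to protein-coding genes, so it is not a like comparison for the members. With 1 value per gene, the median ratio was 0.760 for the 216 members and 0.749 for 15319 protein-coding genes. For 214 ZNF genes on other chromosomes it was 0.802.

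Set against the level, 13 of 35 promoters (37.1%) of members under a level of 1 in a library had a ratio below 0.5, compared with 16 of 181 (8.84%) of members at a level of 1 or more in both. The medians were 0.560 and 0.768. Much of this contrast followed the clusters. Within the block from ZNF101 to ZNF254 the medians were 0.406 for 10 lower members and 0.492 for 19 higher ones, and within ZNF653 to ZNF791 they were 0.529 for 10 and 0.662 for 14. Outside these blocks the order was the other way, with 0.820 for 15 lower members and 0.798 for 148 higher ones. Over all 216 members the rho of level and ratio was 0.20.

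**Figure D3:**
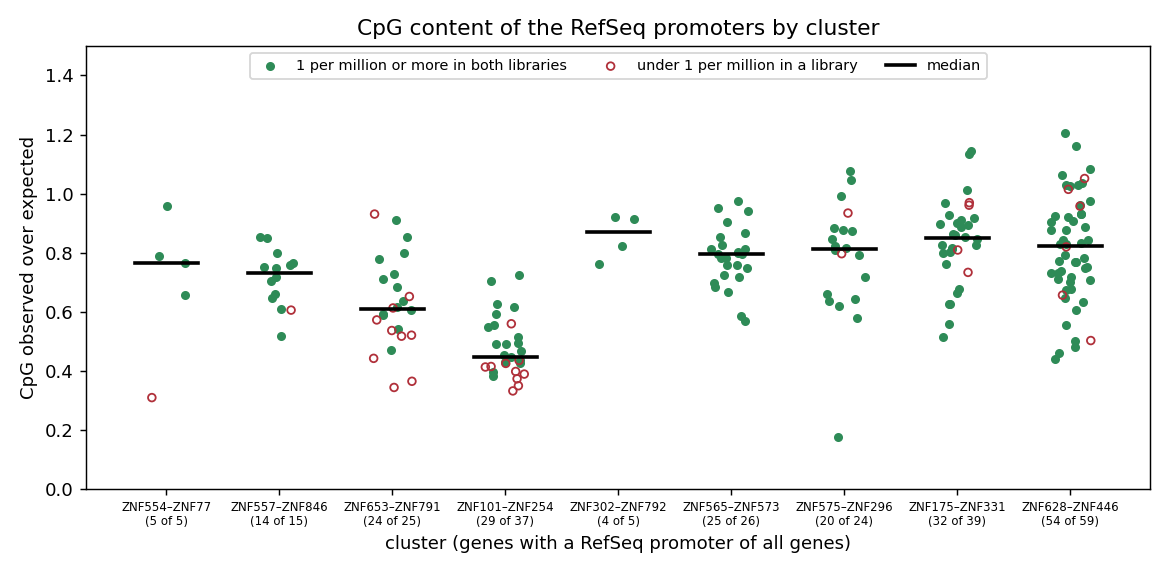
Observed over expected CpG of the RefSeq promoters in each cluster; filled points are genes at a level of 1 or more in both libraries, open points are genes under 1 in at least 1 library, and bars are medians. The block ZNF101 to ZNF254 has the lowest median, 0.448, and open points elsewhere, as in ZNF175 to ZNF331, lie among the filled ones.

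The libraries ranked the members alike. Across the 246 members, log2(normalised count + 1) had a Pearson's r of 0.969 and a Spearman's rho of 0.979 between replicate 1 and replicate 2. Genes are not independent replicates, so this is a description. For the 223 members that averaged 10 or more normalised counts, the median absolute log2 difference was 0.27, and for all protein-coding genes it was 0.26. The other 23 members were below this minimum.

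The direction of the difference was uneven. Of the 223 members, 177 (79.4%) were lower in replicate 2, whereas 57.5% of all protein-coding genes passing the same minimum were lower there. Among ZNF genes on other chromosomes it was 141 of 235, and among the other protein-coding genes of chromosome 19 it was 15.5%. The median log2 difference of the members, replicate 2 minus replicate 1, was -0.21, that of all protein-coding genes -0.08 and that of the other genes of chromosome 19 was 0.27. When scaled to total counts, 68.6% of members and 49.9% of protein-coding genes were lower in replicate 2.

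These differences moved with GC content, in ranges chosen after the values had been seen. Below 40% GC, 58 of 63 members were lower in replicate 2, with a median log2 difference of -0.38, and other protein-coding genes in this range had -0.42. From 40 to 45% GC, 91 of 100 members were lower in replicate 2, and from 45 to 50% it was 23 of 29. From 50 to 55% GC, 5 of 6 members were lower in replicate 2 (median -0.09), against 46.0% of other protein-coding genes (median 0.02) and 6 of 24 ZNF genes elsewhere. Of the 6 members from 55 to 60% and the 19 members above 60%, none was lower in replicate 2. For the latter the median log2 difference was 0.54, and it was 0.35 for other protein-coding genes. The canonical transcript was below 45% GC in 183 of the 246 members (74.4%). Below 45% GC, 138 of 152 members with the KRAB core and 11 of 11 without it were lower in replicate 2. At 55% GC and above, none of 5 with it and none of 20 without it was lower there. Across the 223 members the rho of difference and GC was 0.56, and across 13769 other protein-coding genes it was 0.76. The part of GC content in these differences was not tested.

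**Figure D4:**
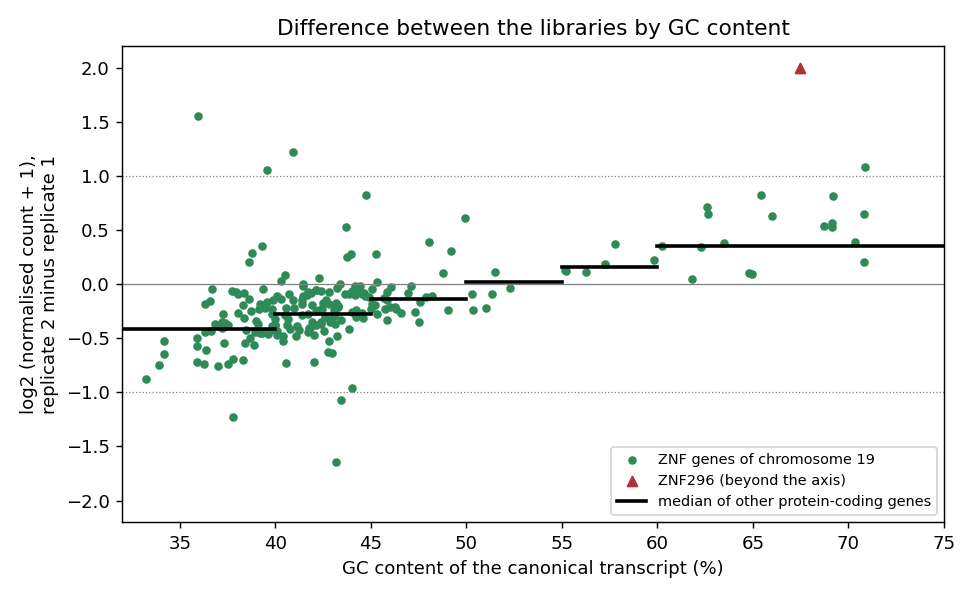
Log2 difference of normalised counts (replicate 2 minus replicate 1, pseudocount 1) of the 223 members with a mean of at least 10, by GC content of the canonical transcript in %; black bars are medians of other protein-coding genes per GC range and dotted lines mark 2-fold. Members above 55% GC all lie above 0, most members under 45% lie below 0, and ZNF296 lies beyond the axis.

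Large differences were few. Over 2-fold apart were 8 of the 223 members (3.59%), beside 2.77% of protein-coding genes. Of these, 5 were higher in replicate 2 (background 1.78%) and 3 were lower (background 0.993%). ZNF296, a gene with 1 listed transcript, had 0 and 69.5 normalised counts and was at least 21.9-fold higher in replicate 2, taking 3 counts as the floor in replicate 1. ZNF836 had 136.9 and 43.1 normalised counts and ZNF441 had 77.2 and 32.5, both lower in replicate 2. ZNF404 had 38.0 and 113, and ZNF20 had 13.6 and 32.9. ZNF865, ZNF177 and ZNF709 differed 2.12-, 2.12- and 2.09-fold. ZNF20, ZNF177 and ZNF709 are among the 9 members that share over 50% of their words with other genes, and readthrough genes that join ZNF559 with ZNF177 and ZNF625 with ZNF20 are annotated over a pair of them. The part of shared sequence in these differences was not tested. Over all 223 members, the absolute difference and the share of shared words had a rho of 0.01.

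In ZNF404 and ZNF836 most of the difference lay in 1 transcript. ZNF404-201 had 0 and 81.3 normalised counts, while ZNF404-202, which has no defined coding sequence, had 38.0 and 31.8. ZNF836-203 had 65.4 and 0, while ZNF836-202 had 56.0 and 38.8. The second transcript of each gene thus differed much less than the gene.

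Transcripts were less reproducible than genes. Members had 1623 listed transcripts, with a median of 6 per gene. Of 802 that averaged 10 or more normalised counts, 192 (23.9%) were over 2-fold apart, beside 30.8% for the transcripts of all protein-coding genes. The leading transcript was that with the highest normalised count. It was examined in 213 members with at least 2 transcripts and at least 10 normalised counts in both libraries. It was the same in both libraries for 166 of them (77.9%, 95% exact interval 71.8 to 83.3%) and differed for 47, or 22.1%, where the background was 17.9%. Among all protein-coding genes the share with the same leader was 82.1%. The interval treats genes as independent, which they are not, so no conclusion is drawn from it.

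This share went with the gene's count. It was 15 of 28 for members with a mean of 10 to 100 normalised counts, 124 of 155 from 100 to 1000, and 27 of 30 above. For all protein-coding genes these shares were 69.1, 81.7 and 87.5%. The leader was the same in 136 of 181 members with the KRAB core (75.1%, interval 68.2 to 81.3%) and in 30 of 32 without it (93.8%, 79.2 to 99.2%).

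**Figure D5:**
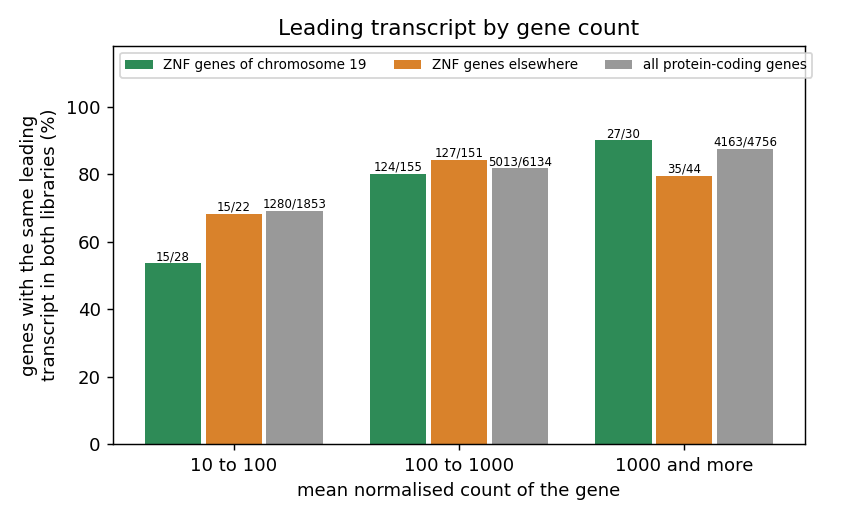
Percentage of genes that kept their leading transcript in both libraries, by mean normalised count of the gene, for ZNF genes of chromosome 19, ZNF genes elsewhere and all protein-coding genes; numbers above the bars are genes with the same leader over genes examined. The share for chromosome 19 ZNF genes rises from 15/28 to 27/30.

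Even highly counted members exchanged leaders. In ZNF227, transcript ZNF227-208 took 37.2% of the gene's counts in replicate 1 and 31.7% in replicate 2, while ZNF227-201 took 32.3 and 41.2%. In ZNF226, the 817-base ZNF226-201 led in replicate 1 with 32.3% and had 24.6% in replicate 2, where the 5972-base ZNF226-213 led with 30.2% after 24.5%. ZNF791 switched between a pair of near-equal transcripts, ZNF791-201 (51.5 and 41.2%) and ZNF791-202 (44.1 and 52.7%). In ZNF766 the shares of ZNF766-202 (35.9 and 32.1%) and ZNF766-201 (33.02 and 37.5%) crossed. ZNF544 had 5 transcripts with at least 10% of its counts, and ZNF544-201 (23.5 and 14.3%) gave way to ZNF544-206 (13.4 and 22.1%). All these leaders are annotated as protein-coding. By contrast, ZNF146-201 held 97.04 and 91.7% of ZNF146, ZNF850-202 held 97.6 and 98.7% of ZNF850, and ZNF121-202 held 79.0 and 84.3% of ZNF121.

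Most counts of the members fell on transcripts annotated as protein-coding, 90.9% in replicate 1 and 89.7% in replicate 2 (90.3 ± 0.877, SD, n = 2). Over all protein-coding genes it was 84.7 and 85.0%. Retained introns took 3.79 and 4.46% of the members' counts, against 6.82 and 6.59% over all protein-coding genes, and transcripts annotated for nonsense-mediated decay took 3.62 and 3.78%, against 5.12 and 5.21%. In both libraries, 8 of the 221 members examined had under 50% on protein-coding transcripts, namely ZNF333, ZNF461, ZNF573, ZNF230, ZNF229, ZNF83, ZNF677 and ZNF550. The like count over all protein-coding genes was not made, so whether 8 is many or few is not known. In ZNF573 this share was 4.86 and 9.70%, and in ZNF83, where the nonsense-mediated decay transcript ZNF83-205 led with 51.1 and 53.1%, it was 16.1 and 8.16%. Most of the counts behind the gene levels of such members thus lay on transcripts of other classes.

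The partners of KRAB proteins were all present. All 19 listed genes lay above the median of the members and above the median of all protein-coding genes, with levels from 9.08 (SMARCAD1) to 462 (TRIM28). TRIM28, the KRAB-binding corepressor, was at 450 and 475, a mean of 462 ± 17.8 (SD, n = 2), which is 92.3 times the median member. It was the sole partner above ZNF146. SETDB1 was at 30.9 and 25.1. Of the HP1 genes, CBX3 was at 99.0 and 74.5, CBX1 at 76.8 and 64.9 and CBX5 at 41.3 and 39.3. Of the HUSH complex genes, TASOR was at 19.99 and 15.3, PPHLN1 at 31.6 and 26.5 and MPHOSPH8 at 10.3 and 9.04.

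Finally, 15 further zinc finger genes of chromosome 19 were picked by symbol, and 3 hyphenated ZNF genes are readthrough genes over members. The symbols of the 15 begin with ZFP (ZFP36 left out), ZSCAN, ZIM or ZIK, or are PEG3, and genes with other symbols were not looked at. Of the 15, 8 reached a level of 1 in both libraries, beside 60.3% of all protein-coding genes. Of the readthrough genes, ZNF559-ZNF177 (2.79 and 2.68) did so, whereas ZNF625-ZNF20 was at 1.25 and 0.528 and ZNF816-ZNF321P at 0.728 and 0.485. ZSCAN18 (33.8 and 43.1) and ZFP30 (23.1 and 20.5) were the highest, whereas ZIM2, ZSCAN1, ZSCAN4, ZSCAN5B and ZSCAN5C were listed at 0 in both libraries. The imprinted gene PEG3 was at 0 and 0.00666.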

How the data were processed

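rRNA-depleted total RNA of HEK293 cells was sequenced from TruSeq libraries. The deposited tables gave, per transcript, an RSEM estimated count and a normalised signal, which the authors made by dividing the count by a library size factor of 0.945 (replicate 1) or 1.08 (replicate 2). The submitters' processing notes name FastQC, STAR 2.7.0d, RSEM 1.3.3 and R 3.6.3, and the study names Ensembl release 104. The strand setting was not given in the sources used here. Of 206696 listed transcripts, 202217 were matched without version to GENCODE v44 and summed per gene; the other 4479 stayed in the totals only. For members, 84.0% of transcripts had the same version, with 50.4 and 51.3% of counts, so lengths may differ from those counted. Levels are estimated counts over GENCODE length without effective length correction, scaled to 1000000 per library. Depth was 25158962 and 27143860 counts. Floors (3 counts) cover counting error only, and intervals (exact, 95%) treat genes as independent. Differences are log2(normalised count + 1). No test was run, as there is 1 group. Fingers (C, 2 residues, C, 12 residues, H, 3 to 5 residues, H) and the KRAB core were read from translated GENCODE v44 canonical coding sequences, in place of the planned RefSeq proteins. Named genes were the 10 highest members, the extremes of each cluster, the 5 largest differences, the 5 highest members with a changed leader, the 5 with most fingers, 14 with known roles and those at 0; others were named after their values were seen. Members and lists were chosen with earlier results of these data known. Scripts were tested on simulated data. Alternatives covered filters, pseudocounts, scaling (edgeR TMM factors, total counts), transcript sets and single libraries. Python 3.11.15, pandas 2.3.3, scipy 1.17.1 and edgeR were used. The METTL8 tables were not used here.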

Additional observations from a re-analysis of the deposited data

How the results depend on the processing

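No paired analysis was possible because the labels give a single group. Of 54 alternative values, 39 stayed within the limit set for their result. For counts the limit was 1.5 times, and for the highest and lowest cluster it was the same cluster. For correlations it was a small fixed difference, and otherwise the SD or the interval. The number of members at a level of 1 or more was 190 with protein-coding transcripts only. It was 212 when misc_RNA, ribozyme and snRNA were left out of the total, and 205 and 206 with replicate 1 and replicate 2 alone. Other criteria gave 221 members (at least 10 normalised counts), 224 (a level of at least 0.1) and 233 (any count above 0). The highest and lowest cluster were the same under all 5 alternatives tried. The median level of 5.01 became 3.90 with protein-coding transcripts only, 10.5 when misc_RNA, ribozyme and snRNA were left out of the total, and 5.84 with the mean transcript length of the gene, while the median normalised count per gene, another unit, was 341. With each library alone it was 4.91 and 5.11. The number of members over 2-fold apart rose from 8 to 16 with a minimum mean of 1, with no filter, or with protein-coding transcripts only, fell to 2 with a minimum mean of 100, and was 31 at 1.5-fold. Scaled to total counts, the median absolute log2 difference was 0.21 and the share of members lower in replicate 2 was 68.6%. In alternatives added after seeing the data, the latter share was 73.6% for members with under 1% shared words and 78.9% for members that overlap no other gene. The share of counts on protein-coding transcripts was 82.4% per length and ranged from 89.7 to 90.9% with each library alone. The correlation between libraries was 0.943 with a pseudocount of 0.1. The rho of neighbouring genes, 0.43, was 0.16 or 0.23 after the cluster median was subtracted or divided out, also added after seeing the data. Depth limits the members with few counts, as 23 had a mean under 10.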
